A study of Mus musculus with 12 samples.

Results

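The 37 genes described here encode the transporters and enzymes that carry glucose to pyruvate and lactate, the mitochondrial import and oxidation of pyruvate with its inhibitory kinases, and 4 genes of glycogen synthesis. They were chosen by name, isoform by isoform along the pathway, with earlier results of these data known. All 37 were found among the 24480 genes of every deposited table. RNA-Seq had been performed on undifferentiated E14Tg2a cells, a feeder-independent line of mouse embryonic stem cells (ESCs), after transient transfection. In the knockdown experiment, YAP KD cells received a mixture of Stealth siRNAs against Yap1 and CTR KD cells a scrambled siRNA, and they were harvested when YAP was at its lowest. In the overexpression experiment, YAP OE cells received a plasmid with mouse YAP under the CAG promoter and CTR OE cells a control plasmid, which encodes GFP in the labels and is called an empty vector by the study. Each of the 4 groups had 3 libraries from independent experiments, 12 in all, and no library served in both experiments. The transfections were transient, and cells that took up no siRNA or plasmid may contribute to every library. Their share was not measured here.

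Glycolysis converts glucose to pyruvate in the cytosol and yields ATP without oxygen. Lactate dehydrogenase turns pyruvate into lactate, whereas the mitochondrial pyruvate carrier and the pyruvate dehydrogenase complex lead it into the citric acid cycle, and pyruvate dehydrogenase kinases switch that complex off. Mouse ESCs use glycolysis and respiration side by side, and many glycolytic genes are textbook targets of hypoxia-inducible factors and of Myc. YAP, the transcriptional coactivator of the Hippo pathway, reaches DNA through TEAD factors.

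The libraries held between 4.29e+07 and 5.72e+07 expected counts. The targeted gene was examined first. Yap1 was at 116, 134 and 124 CPM (CTR KD) and 58.2, 54.8 and 56.5 CPM (YAP KD), and at 134, 131 and 134 CPM (CTR OE) and 278, 257 and 245 CPM (YAP OE) (CPM throughout is TMM-normalized). Every YAP KD library was below and every YAP OE library above its controls, with edgeR adjusted p = 4.36e-05 and 3.47e-08, and plasmid and endogenous reads were counted together. The 7 ESC markers (Pou5f1, Sox2, Nanog, Zfp42, Esrrb, Klf4 and Tdgf1) summed to between 3713 and 3955 CPM in the 12 libraries. None was called in either experiment by the edgeR quasi-likelihood test, DESeq2, the edgeR exact test or limma-voom, and 3 in YAP KD (lower) and 1 in YAP OE (lower) had an unadjusted p under 0.05. The 14 markers of differentiating or fibroblast cells summed to between 44.8 and 54.7 CPM, and 9 or 10 of them had a group mean under 1 CPM. Of these, Nes was called higher in YAP KD (21.8 ± 0.736 CPM against 29.9 ± 0.185 CPM, mean ± SD, n = 3) and Cdx2, near 0 in the controls, was called higher in YAP OE (0.149 ± 0.0690 CPM against 0.631 ± 0.0198 CPM). In YAP OE the edgeR exact test called 2 of the 13 such markers tested higher and 1 lower. At an unadjusted p under 0.05, 3 were higher in YAP KD and 0 lower, and 3 were higher in YAP OE and 2 lower. The part of these markers in the results below was not tested. In bulk RNA, more cells of a kind and more RNA per cell cannot be told apart.

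A set of the 37 genes was higher after YAP was lowered, and a smaller, partly overlapping set was higher after YAP was raised. A gene was called when its adjusted p in the edgeR quasi-likelihood test over all genes kept was under 0.05. In YAP KD, 13 of the 37 genes were called higher than in CTR KD and 0 lower, against 2.71% of the 14606 genes tested called higher and 2.78% called lower. The 13 were Slc2a1, Gpi1, Pfkl, Pfkp, Aldoa, Aldoc, Tpi1, Pgk1, Pgam1, Pkm, Ldha, Pdk1 and Gbe1. In 16 of the 37 all YAP KD libraries lay above all CTR KD libraries (13.2% of all genes tested), and in 3 all lay below (12.7%). The median log2 fold change of the 37 genes was 0.11, beside 0.0058 for all genes tested. At an unadjusted p under 0.05, 3 of the 37 were lower in YAP KD (Slc2a3, Pdk4 and Pdha1), and DESeq2 and the edgeR exact test each called 2 of the 3 lower.

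In YAP OE, 5 of the 37 genes were called higher than in CTR OE (Slc2a1, Pgk1, Eno3, Ldha and Pgm2) and 0 lower, against 1.66% of the 14804 genes tested called higher and 0.473% called lower. No gene of the 37 had an unadjusted p under 0.05 with a lower level in YAP OE, and DESeq2, the edgeR exact test and limma-voom also called 0 lower. All YAP OE libraries lay above all CTR OE libraries in 16 genes (10.3% of all genes tested) and below in 0 (7.80%). The median log2 fold change was 0.07, beside -0.0025 for all genes tested, and 32 of the 37 values were positive. Slc2a1, Pgk1 and Ldha were called higher in both experiments, 12 genes in only 1 of them and 22 in neither. On the log2(TPM + 1) scale limma called 0 of the 37 in either experiment, with 9 at an unadjusted p under 0.05 in each. Once the TPM were scaled by TMM, an alternative chosen after seeing the data, it called 13 in YAP KD (12 higher and Pdha1 lower) and 1 in YAP OE. A call in only 1 experiment does not show that the experiments differ. The difference between the 2 log2 fold changes, tested as an interaction over all 12 libraries, was called in 4 of the 37 genes (Slc2a3, Tpi1, Pdk4 and Pdha1), against 8.80% of the 15049 genes tested.

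**Figure D1:**
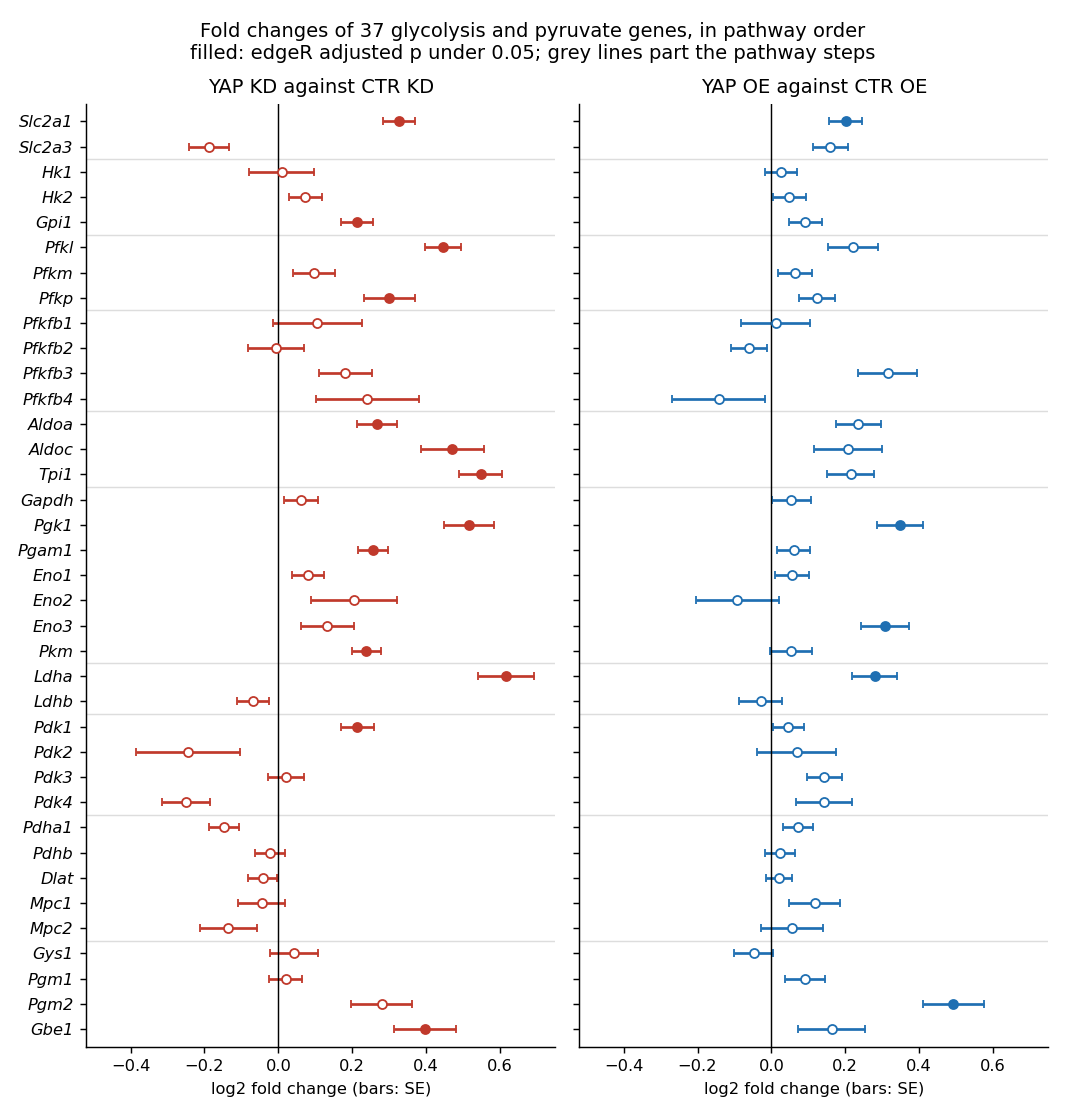
Log2 fold change of each of the 37 genes (horizontal axis, bars are SE) in YAP KD against CTR KD (left, red) and in YAP OE against CTR OE (right, blue), 3 libraries a group, ordered along the pathway. Filled symbols mark an edgeR adjusted p under 0.05: 13 genes on the left and 5 on the right, all above 0, while all 5 genes of pyruvate import and the dehydrogenase complex (Pdha1 to Mpc2) lie below 0 on the left and above it on the right without a call.

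**Figure D2:**
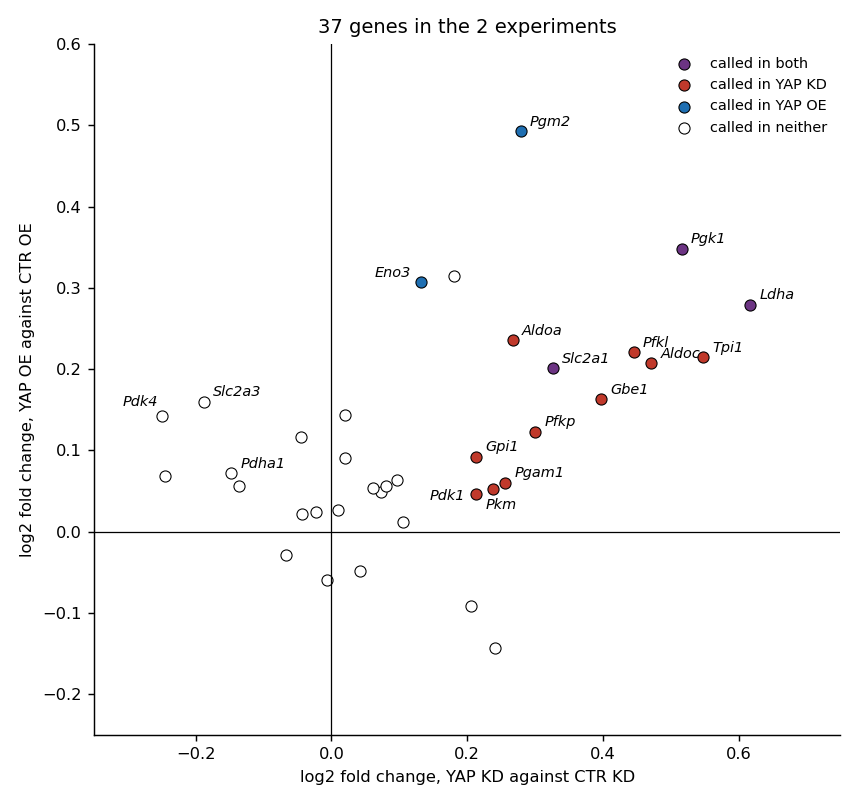
Each point is 1 of the 37 genes, with its log2 fold change in YAP KD against CTR KD on the horizontal axis and in YAP OE against CTR OE on the vertical axis. Of the 37 points, 24 are positive in both experiments, 2 negative in both, 8 negative in YAP KD and positive in YAP OE, and 3 the reverse. Ldha, Pgk1 and Slc2a1 (purple) were called in both.

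Glucose enters ESCs through the transporters GLUT1, encoded by Slc2a1, and GLUT3, encoded by Slc2a3, and their values differed in sign after YAP loss. Slc2a1 was at 193, 200.1 and 201 CPM (CTR KD) and 241, 261 and 244 CPM (YAP KD). It rose 1.25-fold, a log2 fold change of 0.33 ± 0.0441 (SE) and an adjusted p of 0.00335 by edgeR, and the call held in each of the 6 leave-one-out fits. In the overexpression Slc2a1 was at 215, 203 and 219.6 CPM (CTR OE) and 232, 249.6 and 250.5 CPM (YAP OE). The groups did not overlap there either, with a log2 fold change of 0.20 ± 0.0448 (SE) and an adjusted p of 0.0276 by edgeR, but the call was lost in 5 of the 6 leave-one-out fits (adjusted p up to 0.157), namely all but the fit without YAP OE replicate 1.

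Slc2a3 was the more abundant transporter per length, with 314 against 82.7 CPM per kilobase in CTR KD. Its level was 1119, 1275 and 1176 CPM (CTR KD) and 1092, 1017 and 1025 CPM (YAP KD). All YAP KD libraries were lower, with a log2 fold change of -0.19 ± 0.0543 (SE) and an adjusted p of 0.0831 by edgeR, which missed the threshold, and DESeq2 and the edgeR exact test called it lower. In the overexpression, Slc2a3 was at 1223, 1182 and 1202 CPM (CTR OE) and 1285, 1364 and 1379.8 CPM (YAP OE). All YAP OE libraries were higher, with a log2 fold change of 0.16 ± 0.0467 (SE) and an adjusted p of 0.108 by edgeR, and DESeq2 called it higher. The knockdown effect was lower than the overexpression effect by 0.35 ± 0.0715 (SE) on the log2 scale, with an adjusted p of 0.00614, and this difference was called in each of the 12 leave-one-out fits. The share of Slc2a1 in the TPM (length-normalized level) of both transporters was 21.4%, 19.9% and 21.3% in CTR KD and 25.9%, 28.9% and 27.3% in YAP KD, without overlap. In CTR OE and YAP OE it was 21.8% ± 0.526 and 22.3% ± 0.0839, and the groups overlapped.

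Hexokinase traps glucose in the cell as glucose 6-phosphate. Neither Hk2, which made up 84.4% ± 1.19 of hexokinase TPM in CTR KD, nor Hk1 was called. The log2 fold changes of Hk2 were 0.07 ± 0.0438 (SE) after knockdown and 0.05 ± 0.0453 after overexpression. Gpi1, glucose 6-phosphate isomerase, makes fructose 6-phosphate and was at 211, 224 and 217 CPM (CTR KD) and 245, 261 and 251 CPM (YAP KD). It rose 1.16-fold after knockdown, a log2 fold change of 0.21 ± 0.0429 (SE) and an adjusted p of 0.0209 by edgeR, and the call was lost in 4 of the 6 leave-one-out fits (adjusted p up to 0.115). In YAP OE its log2 fold change was 0.09 (edgeR adjusted p = 0.394), with all YAP OE libraries above all CTR OE libraries.

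Phosphofructokinase commits fructose 6-phosphate to glycolysis, and its liver and platelet subunits rose in YAP KD while the muscle subunit was not called. Pfkl was at 169.5, 177 and 174 CPM (CTR KD) and 223, 251 and 234 CPM (YAP KD). It rose 1.36-fold with a log2 fold change of 0.45 ± 0.0494 (SE) and an adjusted p of 0.00131 by edgeR, and the call held in each of the 6 leave-one-out fits. In the overexpression Pfkl was at 219, 186 and 227 CPM (CTR OE) and 229, 243 and 265 CPM (YAP OE). All YAP OE libraries were higher than all CTR OE libraries, though by little for CTR OE replicate 3, and a log2 fold change of 0.22 ± 0.0667 (SE) and an adjusted p of 0.123 by edgeR missed the threshold. Pfkp was at 173, 153 and 165 CPM (CTR KD) and 181, 214 and 211 CPM (YAP KD). It rose 1.23-fold without overlap, a log2 fold change of 0.30 ± 0.0690 (SE) and an adjusted p of 0.0358 by edgeR. For Pfkp the call was lost in 3 of the 6 leave-one-out fits (adjusted p up to 0.151). Fractional expected counts in every library show that some of its reads were shared with another gene. Pfkm was at 26.2 ± 1.91 CPM and 28.0 ± 0.407 CPM in the knockdown, with overlapping libraries.

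The 4 Pfkfb genes encode the enzymes that make and remove fructose 2,6-bisphosphate, the main activator of phosphofructokinase. None was called by edgeR in either experiment, and Pfkfb3 had an unadjusted p under 0.05 in both. The level of Pfkfb3 was 7.89, 7.64 and 7.50 CPM (CTR OE) and 8.85, 10.7 and 9.17 CPM (YAP OE). All YAP OE libraries were higher, with a log2 fold change of 0.31 ± 0.0789 (SE) and an adjusted p of 0.0542 by edgeR, and the edgeR exact test called this gene. In the knockdown its log2 fold change was 0.18 (SE 0.0713), again without overlap. Pfkfb2 was the most abundant of the 4 per length (4.25 CPM per kilobase in CTR KD) and had log2 fold changes of -0.01 and -0.06. Pfkfb1 and Pfkfb4 stayed under 5 CPM in every library.

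Aldolase cleaves the hexose and triose phosphate isomerase interconverts the products, and all 3 genes of this step rose in YAP KD. Tpi1 was at 188, 179 and 197 CPM (CTR KD) and 257, 294 and 273 CPM (YAP KD). It rose 1.46-fold with a log2 fold change of 0.55 ± 0.0572 (SE) and an adjusted p of 0.000894 by edgeR, and the call held in each of the 6 leave-one-out fits. In the overexpression, Tpi1 was at 230.5, 207 and 249 CPM (CTR OE) and 254, 252 and 289.5 CPM (YAP OE). All YAP OE libraries were higher, the lowest by a narrow margin, with a log2 fold change of 0.21 ± 0.0639 (SE) and an adjusted p of 0.116 by edgeR. The knockdown effect on Tpi1 exceeded the overexpression effect by 0.33 ± 0.0987 (SE) on the log2 scale, with an adjusted p of 0.0493, a call that was lost in 9 of the 12 leave-one-out fits (adjusted p up to 0.136).

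Aldoa, the aldolase that made up 99.4% ± 0.0382 of aldolase TPM in CTR KD, was at 696, 741 and 744 CPM (CTR KD) and 824, 936 and 866 CPM (YAP KD). It rose 1.20-fold with a log2 fold change of 0.27 ± 0.0532 (SE) and an adjusted p of 0.0198 by edgeR, and the call was lost in 4 of the 6 leave-one-out fits (adjusted p up to 0.0898). In YAP OE, the value for Aldoa was 0.24 ± 0.0610 (log2, SE), without overlap and with an edgeR adjusted p of 0.064, and DESeq2, the edgeR exact test and limma-voom called it. Aldoc, the brain aldolase, rose 1.39-fold in YAP KD from a low level (8.24 ± 0.282 CPM in the controls), with a log2 fold change of 0.47 ± 0.0861 (SE) and an adjusted p of 0.0134 by edgeR, and the call was lost in 3 of the 6 leave-one-out fits (adjusted p up to 0.0671).

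Among the 7 genes of the lower part, from glyceraldehyde 3-phosphate to pyruvate, 3 rose in YAP KD and 2 in YAP OE, with Pgk1 in both. Pgk1 encodes phosphoglycerate kinase, the first step that yields ATP. Its level was 494, 469 and 514 CPM (CTR KD) and 640.4, 776 and 696 CPM (YAP KD). It rose 1.43-fold with a log2 fold change of 0.52 ± 0.0673 (SE) and an adjusted p of 0.00287 by edgeR, and the call held in each of the 6 leave-one-out fits. In the overexpression, Pgk1 was at 553, 515 and 602 CPM (CTR OE) and 653, 705 and 767 CPM (YAP OE). It rose 1.27-fold with a log2 fold change of 0.35 ± 0.0633 (SE) and an adjusted p of 0.00764 by edgeR, and without CTR OE replicate 2, the lowest control, the adjusted p was 0.0593.

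Pgam1, phosphoglycerate mutase, was at 443, 478 and 459 CPM (CTR KD) and 543, 554 and 551 CPM (YAP KD), and rose 1.19-fold with a log2 fold change of 0.26 ± 0.0411 (SE) and an adjusted p of 0.00747 by edgeR. Pkm, pyruvate kinase and the most abundant of the 37 genes by CPM in every group, was at 1925, 1931 and 1917 CPM (CTR KD) and 2249.7, 2349 and 2210.3 CPM (YAP KD). It rose 1.18-fold with a log2 fold change of 0.24 ± 0.0398 (SE) and an adjusted p of 0.00874 by edgeR, and the call was lost in 2 of the 6 leave-one-out fits (adjusted p up to 0.0575). In YAP OE the log2 fold changes of Pgam1 and Pkm were 0.06 and 0.05, with overlapping libraries for both. The files count reads per gene, so the M1 and M2 forms of pyruvate kinase were not separated.

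Gapdh was the gene of the group with the highest level per length in CTR KD (1338 CPM per kilobase). It was at 1659, 1696 and 1651 CPM (CTR KD) and 1791, 1796 and 1633 CPM (YAP KD). The libraries overlapped, and the log2 fold changes were 0.06 ± 0.0466 (SE) and 0.05 ± 0.0528 in the knockdown and the overexpression, neither called. Gapdh is a usual reference gene for quantitative PCR.

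Enolase makes phosphoenolpyruvate. Eno1 shares its reads with Eno1b, a near-identical gene, which took 692.8 ± 16.4 CPM beside 588 ± 17.6 CPM for Eno1 in CTR KD. With both summed, an alternative chosen after seeing the data, the log2 fold changes were 0.10 ± 0.0398 (SE, adjusted p = 0.212 by edgeR) after knockdown and 0.05 ± 0.0489 (adjusted p = 0.714) after overexpression. The knockdown value had an unadjusted p of 0.0364 by edgeR. Its sums did not overlap, from 1246 to 1314 CPM in CTR KD and from 1346 to 1400 CPM in YAP KD. In the overexpression the sums overlapped. Eno3, the muscle enolase, was at 8.01, 7.97 and 8.31 CPM (CTR OE) and 10.0, 9.59 and 10.4 CPM (YAP OE). It rose 1.24-fold in YAP OE with a log2 fold change of 0.31 ± 0.0656 (SE) and an adjusted p of 0.0212 by edgeR, and the call was lost in 4 of the 6 leave-one-out fits (adjusted p up to 0.0954). In YAP KD its log2 fold change was 0.13 (SE 0.0712). Eno2, the neuronal form, stayed under 4 CPM in every library.

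Lactate dehydrogenase is built from A and B subunits, and Ldha had the highest log2 fold change of the 37 genes in YAP KD. Its level was 198, 188 and 207 CPM (CTR KD) and 267, 335 and 307 CPM (YAP KD). It rose 1.53-fold with a log2 fold change of 0.62 ± 0.0758 (SE) and an adjusted p of 0.00228 by edgeR, and the call held in each of the 6 leave-one-out fits. In the overexpression, Ldha was at 262, 241 and 279 CPM (CTR OE) and 296, 305 and 348 CPM (YAP OE). It rose 1.21-fold without overlap, with a log2 fold change of 0.28 ± 0.0617 (SE) and an adjusted p of 0.0265 by edgeR, and the call was lost in 3 of the 6 leave-one-out fits (adjusted p up to 0.15), those without CTR OE replicate 1, CTR OE replicate 2 or YAP OE replicate 3. With the 12 libraries in 1 fit, the Ldha call in YAP OE was also lost (edgeR adjusted p = 0.0976). Ldhb was not called, at log2 fold changes of -0.07 (SE 0.0431) and -0.03 (SE 0.0577).

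The share of Ldha in their TPM was 32.1%, 29.8% and 33.4% in CTR KD and 39.1%, 45.0% and 43.9% in YAP KD. It was 41.2%, 39.0% and 42.0% in CTR OE and 44.9%, 47.4% and 45.8% in YAP OE. The YAP groups lay above their controls in both experiments without overlap, by 10.9 and 5.32 percentage points. With 3 libraries against 3, an exact permutation test of a single share cannot pass 0.05, so these shares are given as a description. Pfkl took 48.4% ± 1.52 of phosphofructokinase TPM in CTR KD and 51.5% ± 1.04 in YAP KD, without overlap, and 52.7% ± 2.14 and 54.6% ± 0.804 in CTR OE and YAP OE, with overlap.

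**Figure D3:**
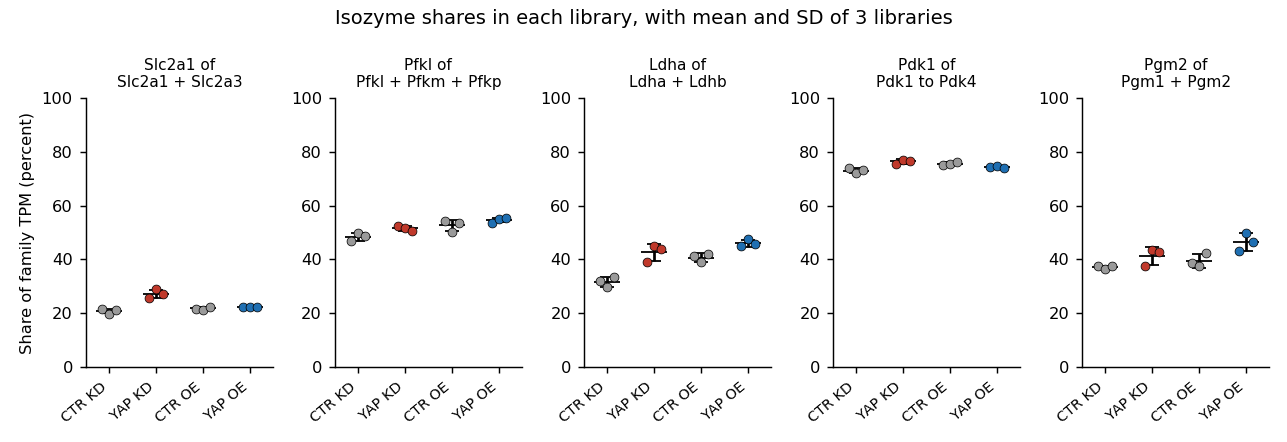
Share of 1 isozyme gene in the TPM of its family (vertical axis, percent) in each library (points), with the mean and SD of 3 libraries (bars), by group (horizontal axis). Ldha rises from 31.8% to 42.7% in the knockdown and from 40.7% to 46.0% in the overexpression, while the Slc2a1 share goes from 20.9% to 27.3% in the knockdown and from 21.8% to 22.3% in the overexpression.

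Pyruvate dehydrogenase kinases phosphorylate and inactivate the pyruvate dehydrogenase complex. Pdk1, which made up 73.0% ± 0.972 of the TPM of the 4 kinase genes in CTR KD, was at 219, 207 and 225 CPM (CTR KD) and 242, 255 and 257 CPM (YAP KD). It rose 1.16-fold with a log2 fold change of 0.21 ± 0.0450 (SE) and an adjusted p of 0.0248 by edgeR, and the call was lost in 4 of the 6 leave-one-out fits (adjusted p up to 0.123). In YAP OE its log2 fold change was 0.05 (SE 0.0410), with overlap. Pdk4 was at 10.3, 9.67 and 9.99 CPM (CTR KD) and 8.79, 8.33 and 8.05 CPM (YAP KD). All YAP KD libraries were lower, with a log2 fold change of -0.25 ± 0.0645 (SE) and an adjusted p of 0.0551 by edgeR, just short of a call, and the edgeR exact test called it lower. In YAP OE its log2 fold change was 0.14. The knockdown effect on Pdk4 was lower than the overexpression effect by 0.39 ± 0.0999 (SE) on the log2 scale, with an adjusted p of 0.0219, and this call was lost in 4 of the 12 leave-one-out fits (adjusted p up to 0.0627). Pdk2, under 4 CPM in every library, and Pdk3 were not called. Pdk3 was at 19.4, 19.1 and 18.7 CPM (CTR OE) and 20.6, 21.6 and 21.0 CPM (YAP OE), without overlap. Its log2 fold change there was 0.14 ± 0.0477 (SE), with an unadjusted p of 0.009 and an adjusted p of 0.173 by edgeR. In YAP KD the Pdk3 value was 0.02, with overlap.

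Mpc1 and Mpc2 bring pyruvate into the mitochondrion, and Pdha1, Pdhb and Dlat belong to the complex that oxidizes it. All 5 genes had negative log2 fold changes in YAP KD, from -0.15 to -0.02, and all 5 had positive ones in YAP OE, from 0.02 to 0.12, and edgeR called none. At an unadjusted p under 0.05, 1 of the 5 was lower in YAP KD, Pdha1, which DESeq2 called, and 0 differed in YAP OE, where DESeq2, the edgeR exact test and limma-voom also called 0. Pdha1, a subunit of the complex, was at 331, 313 and 332 CPM (CTR KD) and 297, 295 and 289.6 CPM (YAP KD). All YAP KD libraries were lower, with a log2 fold change of -0.15 ± 0.0399 (SE) and an adjusted p of 0.0665 by edgeR. In the overexpression, Pdha1 was at 328, 332 and 324 CPM (CTR OE) and 347, 333 and 354 CPM (YAP OE), all YAP OE libraries just above the controls. The knockdown effect was lower than the overexpression effect by 0.22 ± 0.0527 (SE) on the log2 scale, with an adjusted p of 0.0157, called in each of the 12 leave-one-out fits, although the expected counts of Pdha1 were not whole numbers in any library.

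In the glycogen branch, phosphoglucomutase interconverts glucose 6-phosphate and glucose 1-phosphate, Gys1 builds the glycogen chain and Gbe1 adds its branches. Pgm1 and Pgm2 were grouped as phosphoglucomutase genes by name, and their enzyme activities were not measured. The files use older symbols here: their Pgm2 is the gene RefSeq now names Pgm1, and the reverse. Pgm2 in the files' naming was at 17.1, 17.4 and 19.5 CPM (CTR OE) and 21.4, 27.6 and 27.1 CPM (YAP OE). It had the highest log2 fold change of the 37 genes in YAP OE, with a 1.41-fold rise, a log2 fold change of 0.49 ± 0.0821 (SE) and an adjusted p of 0.00399 by edgeR, and the call held in each of the 6 leave-one-out fits. In the knockdown it was at 16.9, 16.0 and 17.6 CPM (CTR KD) and 17.6, 22.0 and 21.6 CPM (YAP KD). The lowest YAP KD library was just above the highest CTR KD library, and a log2 fold change of 0.28 ± 0.0827 (SE) and an adjusted p of 0.0905 by edgeR missed the threshold.

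Gbe1 was at 3.55, 3.74 and 3.80 CPM (CTR KD) and 4.79, 5.11 and 4.72 CPM (YAP KD). It rose 1.32-fold with a log2 fold change of 0.40 ± 0.0836 (SE) and an adjusted p of 0.0247 by edgeR, without overlap, but the call was lost in 5 of the 6 leave-one-out fits (adjusted p up to 0.115) and DESeq2 did not call it. In YAP OE its log2 fold change was 0.16 (SE 0.0904), again without overlap. Gys1 and Pgm1 had log2 fold changes between -0.05 and 0.09 in both experiments and were not called.

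**Figure D4:**
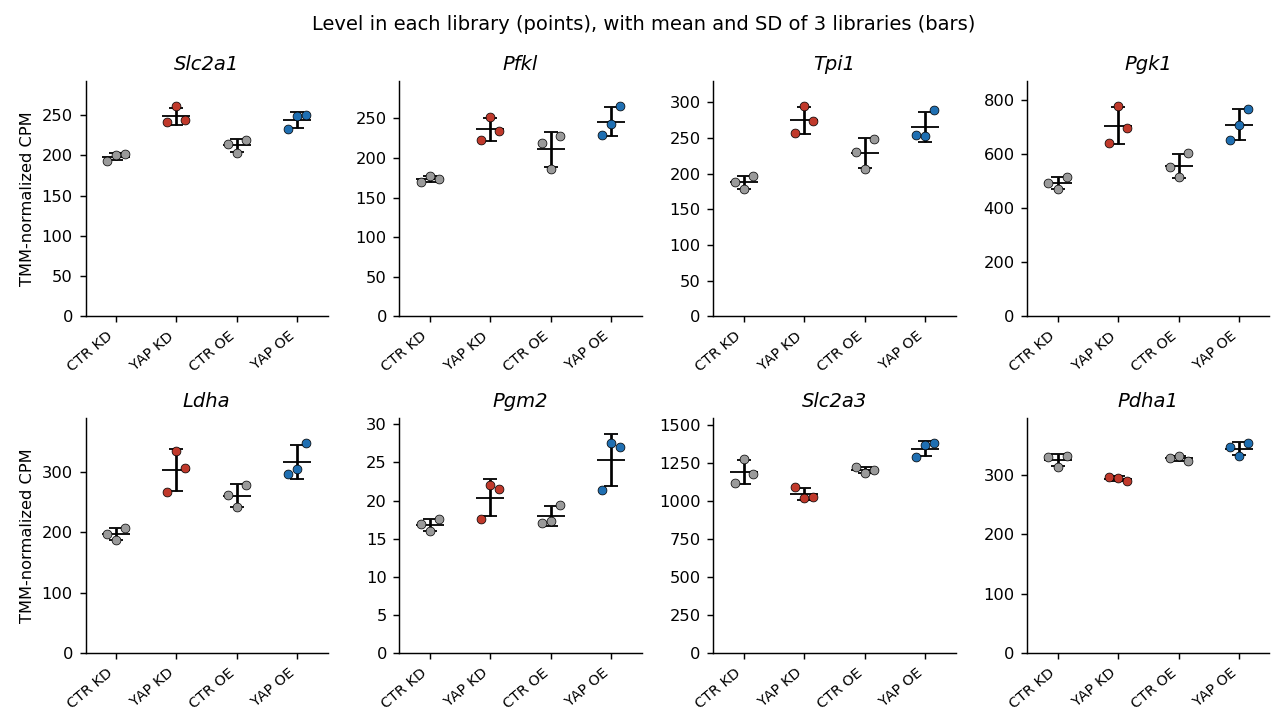
Level of 8 of the genes in each library (points, TMM-normalized CPM on the vertical axis, starting at 0), with the mean and SD of 3 libraries (bars), by group (horizontal axis). Slc2a1, Pfkl, Tpi1, Pgk1, Ldha and Pgm2 lie higher in the YAP group of both experiments, while Slc2a3 and Pdha1 lie lower in YAP KD and higher in YAP OE. Ldha is also higher in CTR OE (261 CPM) than in CTR KD (198 CPM).

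Added up, the 37 genes took between 0.961% and 1.15% of the expected counts of a library. Their summed level was 9719 ± 152 CPM in CTR KD, 10858 ± 323 in YAP KD, 10365 ± 420.0 in CTR OE and 11225 ± 438 in YAP OE. By this sum all YAP libraries lay above all controls in both experiments. By summed TPM, which was not TMM-scaled, the groups overlapped, since YAP KD replicate 1 (2618 TPM) lay below every CTR KD library (2633 to 2790 TPM) and YAP OE replicate 3 (2950 TPM) below CTR OE replicates 1 and 3 (3009 and 3102 TPM). Within a group the called genes tended to be high or low in the same library. Of the 15 genes called in either experiment, 13 were highest in YAP KD replicate 2 among the 3 YAP KD libraries and 12 in YAP OE replicate 3 among the 3 YAP OE libraries, while 11 were lowest in CTR OE replicate 2 among the 3 CTR OE libraries. Genes that move together across libraries are not independent of each other, and the counts above treat them 1 by 1. Without YAP KD replicate 2, 6 of the 37 genes were called in the knockdown, and the calls over all genes went from 802 to 306. Without CTR OE replicate 2, 1 of the 37 was called in the overexpression, and the calls over all genes went from 316 to 181. Leaving out CTR KD replicate 3, where YAP KD replicate 2 was kept, also left 6 of the 37 and 298 over all genes.

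The control groups themselves were not alike. In a comparison chosen after seeing the data, CTR OE against CTR KD, 2 of the 37 genes were called, against 1.33% of the 15049 genes tested. Ldha was higher in CTR OE by 0.39 on the log2 scale (SE 0.0785, edgeR adjusted p = 0.0233) and Mpc1 lower by 0.48 (SE 0.0590, edgeR adjusted p = 0.000754). Ldha was thus at 198 ± 9.79 CPM in CTR KD, 261 ± 18.8 CPM in CTR OE, 303 ± 34.3 CPM in YAP KD and 316 ± 27.7 CPM in YAP OE. Of the 37 values for CTR OE against CTR KD, 24 were positive and 13 negative. Tpi1 was higher in CTR OE by 0.27 (SE 0.0700) without a call (edgeR adjusted p = 0.0807). The kind of nucleic acid transfected and the culture it was given to cannot be told apart between the control groups.

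Of 66 further genes of the pathway and its neighbours, 57 passed the filter on low counts in each experiment. In YAP KD, 3 were called higher (Pcx, Pygl and Slc16a3) and 4 lower (Pdp2, Gyg, Phka1 and Phkb), against 2.71% and 2.78% of all genes tested. In YAP OE 3 were called higher (Gyg, Phka1 and Slc16a3) and 0 lower, against 1.66% and 0.473%. At an unadjusted p under 0.05, 5 were lower in YAP OE, and none of the other 3 tools called any of the 57 lower there. Slc16a3, which encodes the lactate exporter MCT4, was called higher in both experiments, although DESeq2 did not call it in YAP OE. It was at 15.2, 14.1 and 17.1 CPM (CTR KD) and 24.3, 33.0 and 29.1 CPM (YAP KD), a 1.86-fold rise (edgeR adjusted p = 0.00197). In the overexpression it was at 22.4, 19.7 and 26.2 CPM (CTR OE) and 27.2, 32.7 and 34.6 CPM (YAP OE), a 1.38-fold rise (edgeR adjusted p = 0.013). No library overlapped in either. Slc16a1, which encodes the transporter MCT1 and is more abundant by CPM, had log2 fold changes of -0.0044 and 0.04, and its chaperone Bsg 0.10 and 0.11, none called.

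Gyg and Phka1 fell in YAP KD and rose in YAP OE. Gyg, glycogenin, the protein primer of glycogen, was at 7.45, 8.54 and 7.97 CPM (CTR KD) and 5.57, 5.90 and 5.70 CPM (YAP KD), and fell by 0.48 on the log2 scale (edgeR adjusted p = 0.00728). In the overexpression it was at 8.26, 7.87 and 6.87 CPM (CTR OE) and 11.1, 11.6 and 11.0 CPM (YAP OE), a rise of 0.55 (edgeR adjusted p = 0.000731). Phka1, a regulatory subunit of phosphorylase kinase, had log2 fold changes of -0.38 and 0.31, both called. Pygl, liver glycogen phosphorylase, was low, at 1.27 ± 0.146 CPM (CTR KD) against 2.02 ± 0.0987 CPM (YAP KD). Of the 7 genes of the pentose phosphate branch none was called in either experiment by any of the 4 tools, and none had an unadjusted p under 0.05. Tkt, transketolase and the most abundant of them by CPM, was at 468 ± 22.2 CPM (CTR KD) against 437 ± 19.4 CPM (YAP KD).

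Of 13 hypoxia-inducible genes outside glycolysis, 6 were called higher in YAP KD (Ndufa4l2, Bnip3, Egln3, Ddit4, P4ha1 and Higd1a), against 2.71% of all genes tested, and 4 in YAP OE (Ndufa4l2, Bnip3, Egln3 and Ddit4), against 1.66%. In YAP OE, DESeq2 called 2 and the edgeR exact test 7 higher. No tool called any of the 13 lower, and at an unadjusted p under 0.05 only Kdm3a in YAP OE was lower. Bnip3, a mitophagy receptor, was at 32.4, 27.3 and 37.1 CPM (CTR KD) and 41.9, 58.8 and 53.5 CPM (YAP KD). In the overexpression it was at 32.5, 33.4 and 40.8 CPM (CTR OE) and 47.4, 63.8 and 63.3 CPM (YAP OE). The groups were apart in both, with log2 fold changes of 0.67 and 0.71 (edgeR adjusted p = 0.0171 and 0.00106). Egln3, the oxygen-sensing prolyl hydroxylase PHD3, had log2 fold changes of 0.83 and 0.63, and Ddit4, an inhibitor of mTOR signalling, 0.37 and 0.40. Car9, a carbonic anhydrase induced by hypoxia, was under 1 CPM in every group mean and not called, nor was Vegfa, an angiogenic factor (-0.04 and 0.27). The summed level of the 13 genes ran from 369 to 398 CPM in CTR KD, from 433 to 479 in YAP KD, from 389 to 411 in CTR OE and from 409 to 437 in YAP OE. No label gives oxygen, medium or cell density for the libraries. The study's methods describe an ESC maintenance medium that held glutamine, pyruvate, serum and LIF. The part of oxygen, medium or cell density in the levels of the glycolytic genes was not tested.

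The sequences before the start sites of the 3 genes called in both experiments, and of Pgm2 with the highest value in YAP OE, are shown because these genes had the calls or the value that stand out across the experiments. They were read from RefSeq on GRCm38.p6 (the mm10 assembly) and hold the 250 bases before an annotated start, 5′ to 3′ on the plus strand, on which all 4 genes lie. Capitals mark ACGTG (the core of the hypoxia response element), CACGTG (the E-box, which contains ACGTG on both strands) and GGAATG (the TEAD core), each searched on both strands. The genes span chr4:119108745-119137330 (Slc2a1), chrX:106187100-106203699 (Pgk1), chr7:46842274-46855627 (Ldha) and chr4:99929451-99987294 (Pgm2), and of the 2 start windows of Ldha, both inside its span, the upstream one is shown.
Slc2a1, chr4:119108495-119108744: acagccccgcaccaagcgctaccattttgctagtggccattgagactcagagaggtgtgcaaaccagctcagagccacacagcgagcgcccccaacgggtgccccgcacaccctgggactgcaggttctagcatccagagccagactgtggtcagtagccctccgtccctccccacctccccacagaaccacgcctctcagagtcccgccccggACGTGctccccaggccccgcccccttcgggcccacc
Pgk1, chrX:106186850-106187099: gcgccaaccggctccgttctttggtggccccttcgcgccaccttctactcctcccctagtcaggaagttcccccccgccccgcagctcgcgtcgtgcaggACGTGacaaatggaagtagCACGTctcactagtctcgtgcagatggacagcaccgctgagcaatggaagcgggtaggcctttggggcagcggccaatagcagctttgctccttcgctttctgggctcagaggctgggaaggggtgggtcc
Ldha, chr7:46845554-46845803: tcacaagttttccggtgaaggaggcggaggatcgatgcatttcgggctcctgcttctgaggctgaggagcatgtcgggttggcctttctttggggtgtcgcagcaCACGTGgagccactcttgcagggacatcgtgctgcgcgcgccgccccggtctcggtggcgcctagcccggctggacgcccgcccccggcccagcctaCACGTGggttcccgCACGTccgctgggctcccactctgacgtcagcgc
Pgm2, chr4:99929201-99929450: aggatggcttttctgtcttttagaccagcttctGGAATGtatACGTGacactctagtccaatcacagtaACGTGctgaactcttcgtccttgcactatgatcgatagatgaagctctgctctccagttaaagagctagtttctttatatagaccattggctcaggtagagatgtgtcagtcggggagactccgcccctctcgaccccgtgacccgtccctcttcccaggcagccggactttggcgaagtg

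In these windows the ACGTG letters begin 36 bases before the Slc2a1 start, 150 and 131 bases before the Pgk1 start and 208 and 181 bases before the Pgm2 start. The Ldha window holds CACGTG at 145 and 48 bases before the start and a further ACGTG at 34. GGAATG is present only in the Pgm2 window, at 217 bases. Windows of 300 bases (250 before and 50 after a start) matched 36 of the 37 genes, all but Slc2a3. ACGTG was found for 8 of the 15 genes called in either experiment and for 10 of the 21 others, and in 39.3% of the 56 windows of the 37 genes, beside 19.6% of all 32851 windows. The E-box was in 8.93% of their windows beside 7.15% of all, and GGAATG in 16.1% beside 14.7%. Of the 13 genes called in YAP KD, 6 have none of the 3 in their windows (Tpi1, Pfkl, Pfkp, Gpi1, Pdk1 and Gbe1). Letters in a window describe the sequence, and binding was not examined here. The study did run ChIP-Seq for YAP in undifferentiated ESCs, and its peaks were not compared with these windows.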

How the data were processed

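Total RNA of 12 transfected ESC samples was sequenced. The authors mapped reads with STAR to mm10 and quantified curated RefSeq genes with RSEM. Versions and strand setting are not given in the sources used here. The deposited expected counts are RSEM's estimated reads per gene, not normalized, and need not be whole because RSEM divides shared reads. The deposited TPM values are expected counts per effective length, scaled by the authors' RSEM run to a fixed sum, and served for isozyme shares. The FPKM values that the authors deposited were only summed per library.

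Expected counts were rounded and fitted separately for knockdown and overexpression, 6 libraries each, in edgeR 4.0.16 (R 4.3.3, TMM factors, filterByExpr, quasi-likelihood F test, two-sided, Benjamini-Hochberg over all genes kept). SE is the log2 fold change divided by the square root of F. The difference between experiments was an interaction contrast over 12 libraries. Fits were tested on simulated data. Depth was 4.29e+07 to 5.72e+07 expected counts, and no replicate pair was a repeat of 1 library (chi-square of 3.39 to 24.2 per degree of freedom). Each p-value sets a group difference against the spread between these samples. Alternatives covered scaling, filters, DESeq2 1.42.0, limma 3.58.1 (voom, and trend on TPM), the edgeR exact test, length, a block for the replicate number and left-out libraries.

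The 37 genes and the other lists were chosen with earlier results of these data known. All 37 could be named, and from the other lists genes called in either experiment and the most abundant; Vegfa, Car9, Kdm3a and Slc16a1 with Bsg were named after their values were seen. Coordinates and start windows are from RefSeq GRCm38.p6, matched by accession.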

Additional observations from a re-analysis of the deposited data

Results flagged for a closer look

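For 4 of the 37 genes the effect of YAP KD differed from that of YAP OE in the interaction test over all 12 libraries (edgeR adjusted p under 0.05), a share close to the 8.80% of all 15049 genes tested. The knockdown value minus the overexpression value was -0.35 for Slc2a3 (adjusted p = 0.00614), -0.39 for Pdk4 (0.0219), -0.22 for Pdha1 (0.0157) and 0.33 for Tpi1 (0.0493), on the log2 scale. Slc2a3, Pdk4 and Pdha1 had opposite signs in the 2 experiments, whereas Tpi1 was positive in both. Of the neighbouring genes called in either experiment, the difference was 0.37 for Pcx (pyruvate carboxylase, adjusted p = 0.00793), -1.04 for Gyg (2.49e-05), -0.69 for Phka1 (0.000666) and -0.26 for Phkb (0.0225). Of the hypoxia-inducible genes called in either experiment, it was 0.25 for Higd1a (0.0341).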

How the results depend on the processing

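In YAP KD against CTR KD, 13 of the 37 genes were called, all higher. Under each other scaling, filter, test, length offset or stricter p, and with the 12 libraries in 1 fit, between 12 and 16 were called. Of these, 12 to 14 were higher. Slc2a3, Pdk4 or Pdha1 (1 to 3 of them) were called lower with upper-quartile factors, either other filter, DESeq2, the edgeR exact test and the 12 libraries. With the replicate block 5 were called (Slc2a1, Pfkl, Tpi1, Pgk1 and Ldha), and 193 over all genes. Deviations of same-numbered libraries from their group means correlated at r from -0.29 to 0.04. Differently numbered libraries reached r = 0.27 (CTR KD replicate 2 with YAP KD replicate 1). With 3 libraries a group, these values cannot show whether the numbers pair the samples. On log2(TPM + 1) and on log2(TPM + 0.1), 0 were called by limma in either experiment, with 9 genes at an unadjusted p under 0.05 in each. After TMM scaling of the TPM, added after seeing the data, 13 were called in YAP KD (12 higher and Pdha1 lower) and 1 in YAP OE. In YAP OE against CTR OE, 5 genes were called, 9 with no filter, 7 with the replicate block and 5 to 7 otherwise. With the 12 libraries in 1 fit, Ldha was not called (edgeR adjusted p = 0.0976) and Pfkfb3 was. The interaction called 4 genes, 2 with the replicate block and 3 to 5 otherwise. Leaving out 1 library gave 6 to 15 calls in YAP KD (6 without CTR KD replicate 3 or YAP KD replicate 2, 7 without YAP KD replicate 3, where the calls over all genes fell from 802 to 298, 306 and 369), 1 to 7 in YAP OE (1 without CTR OE replicate 2, 2 without CTR OE replicate 1 or YAP OE replicate 3, with 181, 168 and 277 over all genes beside 316) and 2 to 6 for the interaction (2 without CTR KD, YAP KD or CTR OE replicate 3). Of the calls in YAP KD with 1 library left out, 6 to 13 were higher. No called gene changed sign under any alternative. The causes of these losses were not tested. With 3 libraries a group, changes near the size of their SE were not detectable, and some well above it also went uncalled. In YAP KD the main edgeR test did not call Pdk4 (log2 value -0.25, SE 0.0645) or Pdha1 (-0.15, SE 0.0399). It did call Pfkp (0.30, SE 0.0690). A gene without a call may therefore have changed by more than its SE.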
